A study of Homo sapiens with 6 samples.

Results

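De novo purine synthesis builds the purine ring stepwise on a ribose phosphate and ends at inosine monophosphate (IMP), which is then turned into the adenine and guanine nucleotides that RNA, DNA and energy metabolism draw on. Cells can also salvage free purine bases, but dividing lymphocytes depend heavily on the de novo route, and several of its genes are textbook targets of the transcription factor c-Myc. The values below describe 10 genes listed for their steps in this pathway: PRPS2, PPAT, GART, PFAS, PAICS, ADSL, ATIC, IMPDH1, IMPDH2 and GMPS. All 10 were read by the array, and all 10 were bright enough to be among the 12198 genes tested.

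RNA came from P493-6, a human line that the labels call a B-cell lymphoma, grown in RPMI 1640 with FBS and carrying a c-Myc transgene that tetracycline keeps off. The 3 groups differ in how long the transgene had been released, namely 0 hours in low-Myc, 1 hour in mid-Myc and 24 hours in high-Myc cells, with 2 Affymetrix arrays in each. For mid-Myc, the growth protocol field gives 0 hours and the treatment protocol field 1 hour, and 1 hour was used here. The mid-Myc arrays have sample numbers apart from the others. A batch difference therefore cannot be told apart from a change from 0 to 1 hour or from 1 to 24 hours. All groups are from a single line with the same transgene, and synthetic ERCC RNAs were added to each in proportion to the number of cells.

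Every difference is given on 2 log2 scales, because the pathway reads differently on each. The per-cell scale sets each array against its ERCC RNAs, so it measures RNA per cell. The equal-median scale sets the median of the human probe sets equal in all arrays, so it measures a gene against the other genes of its array. Tests are two-sided limma tests with Benjamini-Hochberg adjustment over all genes tested, and "higher" or "lower" as a call means an adjusted p under 0.05. With 2 arrays in each group, the smallest p of an exact permutation test is 0.333.

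A few facts of the series bear on these values. Human medians were 44.5 to 50.3 intensity units in the deposited table, while the 21 ERCC probe sets in the enzymes' intensity range (304 to 1628) had a median in high-Myc arrays 2.6-fold below, and in mid-Myc arrays 1.33-fold below, that of the low-Myc arrays. After the ERCC curve was subtracted, those medians were -0.16 (SD 0.215 over the probe sets) and -0.032 (SD 0.149) log2. MYC read 10470 and 10280 intensity units in low-Myc, 10030 and 9941 in mid-Myc, and 11890 and 11980 in high-Myc arrays. It was higher at 24 hours by 0.96 per cell (log2, SE 0.0278, limma adjusted p = 4.16e-10), which is near the median of 0.97 over all genes tested, and by 0.34 with equal medians (limma adjusted p = 2.68e-07), or 1.27-fold. At 1 hour MYC was higher by 0.13 per cell (limma adjusted p = 0.00282), and above 0 in all 15 alternatives on that scale. With equal medians it was higher by 0.095 (limma adjusted p = 0.0339), but below 0 under 4 other scalings of that kind. MYC is therefore a weak check of the high-Myc label and does not check the mid-Myc label. Of 6 B cell markers, 5 were measured, all above the filter on dim probe sets, and their summed deposited intensity, mostly that of MS4A1, was 18180 to 18190 in low-Myc, 18260 to 19010 in mid-Myc and 11950 to 12160 in high-Myc. Those sums are not per cell. Per cell at 24 hours, MS4A1, CD22 and PAX5 were higher by 0.33, 0.26 and 1.34, CD79B was at -0.59, a lower call, and CD79A stood at -0.052. With equal medians PAX5 was higher by 0.26 and the other 4 were lower. The sum over 5 monocyte markers was 1451 to 1468, 1515 to 1565 and 521 to 537 in the same order, with LYZ the brightest at 836 and FCGR3A the dimmest at 6.88, and 6 T and NK cell markers summed to 182 to 278 over the 6 arrays. The 3 epithelial markers summed to 104 to 123, 95.8 to 103 and 162 to 182, and EPCAM, the brightest of them at 50.5, was higher at 24 hours by 2.49 per cell and 1.75 with equal medians. Sums over 3 fibroblast markers were 79.3 to 102 over the 6 arrays, and HBB, the erythroid marker measured, had a mean of 58.9. The part of these marker shifts in the results was not tested. In bulk RNA, fewer cells of a type and less RNA per cell cannot be told apart.

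The known DNA motif of c-Myc with its partner MAX is the E-box CACGTG, which reads the same on both strands. Promoter windows from the RefSeq table for GRCh38.p14, each with 250 bases before and 50 bases from a transcription start, were searched on both strands for CACGTG and for the variant CACGCG. The table matched 8 of the 10 genes (not ADSL and IMPDH2) with 12 windows. CACGTG was in the windows of 3 of the 8 genes, PPAT, PAICS and ATIC, and in 8.77% of the 27305 genes of the table. CACGCG was in 1 of the 8, PFAS, and in 13.5% of all genes. PPAT and PAICS are neighbours on chromosome 4, transcribed away from each other with 136 bases between their starts, so they share the stretch printed first below and also share 1 E-box. That E-box lies at chr4:56435792-56435797, which is 182 bases before the start of PPAT and 40 bases after that of PAICS. ATIC has an E-box on each side of its start, 46 bases before and 29 bases after it. Whether a match goes with the size of a change was not tested. The sequences shown are those of the genes with a match to either motif, PPAT, PAICS, ATIC and PFAS. All are on the + strand, 5′ to 3′, with capitals marking the motif, and lie at chr4:56435616-56435751, chr4:56435772-56435801, chr2:215311959-215312058, chr2:215312079-215312108 and chr17:8249189-8249288 in this order.
PPAT-PAICS between starts: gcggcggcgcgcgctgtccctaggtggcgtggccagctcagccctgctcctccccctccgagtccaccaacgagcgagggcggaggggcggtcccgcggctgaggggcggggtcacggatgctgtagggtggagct
PPAT-PAICS E-box: ctggaaagctgtatttgctgCACGTGgaaa
ATIC upstream: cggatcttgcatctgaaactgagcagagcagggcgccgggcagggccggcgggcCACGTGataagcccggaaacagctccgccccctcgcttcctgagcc
ATIC E-box after start: ctacctgcgCACGTGgtgccgccgctgctg
PFAS upstream: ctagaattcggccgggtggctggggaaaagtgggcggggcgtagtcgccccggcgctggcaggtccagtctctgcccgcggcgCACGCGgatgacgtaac

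A match says only that these letters are present. No binding was measured, and the first stretch is printed for the shared position and holds neither motif.

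The main comparison, high-Myc against low-Myc, asks how far each step of the pathway differed once c-Myc had been released for 24 hours. All 10 genes were higher on both scales, with no overlap between the arrays of the groups. Arrays were apart in this way for 93.5% of all genes tested per cell and for 45% with equal medians. Per cell they rose by 2.33 to 4.08 (log2), with a median of 3.11. All genes tested had a median of 0.97 on that scale, and 90.8% of them were called higher and 2.53% lower, so the count of 10 says little there and the size is what differs. With equal medians the 10 genes rose by 1.26 to 2.93, with a median of 2.06, beside a median of 0.054 over all genes, of which 37.7% were called higher and 26% lower. A further view takes the 3516 genes tested whose mean intensity lay in the enzymes' own range. Their medians were 1.24 per cell and 0.13 with equal medians.

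**Figure D1:**
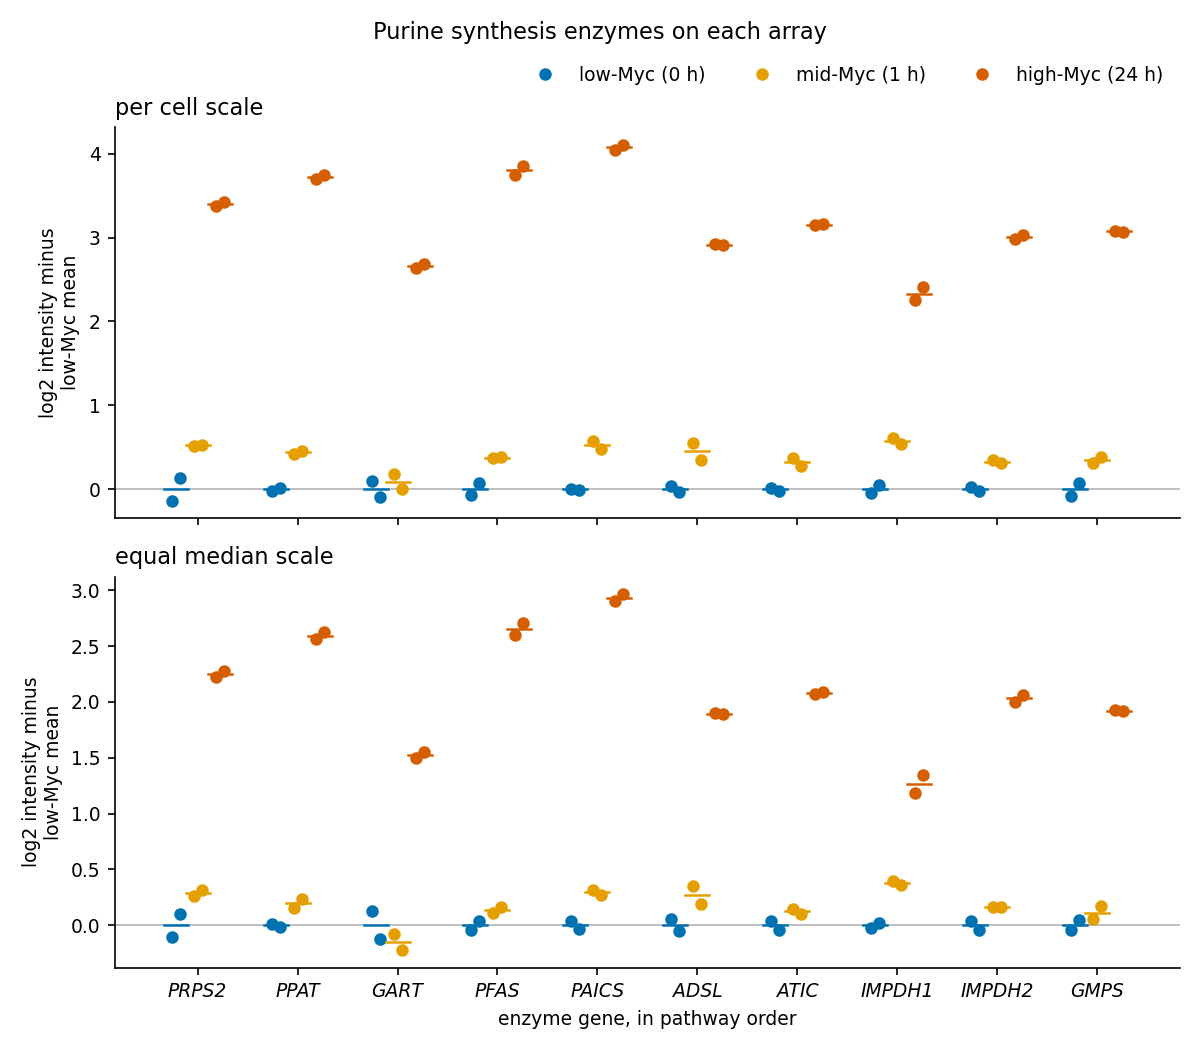
The 10 enzyme genes stand along the horizontal axis in pathway order, and the vertical axis gives the log2 intensity of each array minus the gene's low-Myc mean, per cell above and with equal medians below; each point is an array, coloured by group, and short lines are group means. For every gene both 24-hour arrays lie above all others, and the step from 0 to 1 hour is small beside the step to 24 hours.

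Entry into the pathway needs phosphoribosyl pyrophosphate (PRPP), the activated ribose that PRPS2 makes. PRPS2 read 235 and 275 intensity units in the low-Myc arrays, 277 and 281 in the mid-Myc arrays, and 1089 and 1108 in the high-Myc arrays as deposited. The low-Myc pair was the most spread of the 3 pairs, and the mid-Myc pair lay just above it. Per cell, PRPS2 was higher at 24 hours by 3.40 (log2, SE 0.0795, limma adjusted p = 1.2e-10), or 10.6-fold, and with equal medians by 2.25 (SE 0.0737, limma adjusted p = 1.22e-11).

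PPAT carries out the committed step, in which PRPP receives an amino group from glutamine. Its deposited intensities were 171 and 170 in low-Myc, 174 and 179 in mid-Myc, and 922 and 947 in high-Myc arrays. Low-Myc and mid-Myc readings were nearly level, and both high-Myc readings stood far above them. The rise per cell was 3.73 (SE 0.0550, limma adjusted p = 1.95e-11), and that with equal medians was 2.59 (SE 0.0669, limma adjusted p = 1.82e-12). Its low-Myc mean of 171 was under the second brightest background control (194), so these are differences of readings not shown to be above background in low-Myc cells, and no fold is given.

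GART is a single protein that catalyses several of the following steps, including a transfer of a formyl group from folate. In low-Myc arrays it read 271 and 230, in mid-Myc arrays 216 and 191, and in high-Myc arrays 644 and 659. GART was the only one of the 10 with both mid-Myc readings below both low-Myc readings as deposited. At 24 hours GART was higher by 2.66 per cell (SE 0.0795, limma adjusted p = 5.3e-10), or 6.32-fold, and by 1.52 with equal medians (SE 0.0857, limma adjusted p = 1.99e-09).

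PFAS brings in a further nitrogen from glutamine. Its arrays read 192 and 205 at 0 hours, 195 and 197 at 1 hour, and 1100 and 1166 at 24 hours. The 0-hour pair spanned the 1-hour pair as deposited. PFAS rose by 3.80 per cell (SE 0.0648, limma adjusted p = 2.83e-11), or 13.9-fold, and by 2.66 with equal medians (SE 0.0681, limma adjusted p = 1.77e-12). Its low-Myc mean of 198 was close to the second brightest background control (194), and low-Myc replicate 1 was under that control. The fold is therefore one of readings not shown to be clear of background in low-Myc cells. Its size depended on the probe set. With the mean over its 4 probe sets, PFAS was higher by 2.15 per cell and by 1.28 with equal medians.

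PAICS adds a carboxyl group and then aspartate to the growing ring. It read 285 and 273 in low-Myc, 317 and 300 in mid-Myc, and 1903 and 1959 in high-Myc arrays. Both mid-Myc readings were above both low-Myc readings even as deposited. PAICS had the largest rise of the 10 genes, 4.08 per cell (SE 0.050, limma adjusted p = 1.12e-11), a 16.9-fold difference that ranked 10 among the 12198 genes. With equal medians its rise was 2.93 (SE 0.0605, limma adjusted p = 4.13e-13).

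ADSL removes fumarate from the PAICS product and acts again in the branch from IMP to AMP. Its low-Myc arrays read 845 and 791, its mid-Myc arrays 953 and 832, and its high-Myc arrays 2785 and 2742. The mid-Myc pair differed by more than any other pair of ADSL, with its lower array between the low-Myc arrays. The rise at 24 hours was 2.91 per cell (SE 0.0610, limma adjusted p = 6.89e-11), or 7.53-fold, and 1.90 with equal medians (SE 0.0610, limma adjusted p = 1.03e-11).

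ATIC adds the last formyl group and closes the ring to give IMP. Readings were 617 and 587 at 0 hours, 609 and 575 at 1 hour, and 2316 and 2313 at 24 hours. As deposited, its 0-hour and 1-hour arrays overlapped. ATIC was higher by 3.15 per cell (SE 0.0443, limma adjusted p = 1.63e-11), or 8.87-fold, and by 2.08 with equal medians (SE 0.0542, limma adjusted p = 1.92e-12).

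IMPDH1 and IMPDH2 are isozymes that oxidise IMP on the way to GMP, the rate-limiting step of guanine nucleotide synthesis. IMPDH1 read 664 and 691 in low-Myc, 812 and 776 in mid-Myc, and 1405 and 1550 in high-Myc arrays. IMPDH2 read 1075 and 1023 in low-Myc, 1070 and 1047 in mid-Myc, and 3835 and 3940 in high-Myc arrays. The mid-Myc arrays of IMPDH1 lay above its low-Myc arrays as deposited, whereas those of IMPDH2 lay between its low-Myc arrays.

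IMPDH1 had the smallest 24-hour rise of the 10 genes, 2.33 per cell (95% CI 2.20 to 2.46, limma adjusted p = 1.99e-10), or 5.03-fold. The rise of IMPDH2 was 3.002 per cell (95% CI 2.92 to 3.09, limma adjusted p = 1.12e-11), or 8.01-fold. With equal medians the values were 1.26 (95% CI 1.13 to 1.39) and 2.03 (95% CI 1.92 to 2.14). The per-cell log2 difference IMPDH2 minus IMPDH1 within an array was 0.75 and 0.60 in low-Myc, 0.41 and 0.44 in mid-Myc, and 1.40 and 1.30 in high-Myc arrays. In these probe sets it was narrowest at 1 hour and widest at 24 hours, which does not show which transcript is more abundant. The narrowing at 1 hour rested on the probe set used. The other bright IMPDH1 probe set rose per cell by 0.37 at 1 hour, near the 0.33 of the IMPDH2 probe set used. The 6 IMPDH2 probe sets spanned 0.33 to 0.56 per cell at 1 hour. At 24 hours the other bright IMPDH1 probe set rose by 2.37, below IMPDH2. The difference between the isozymes was not itself tested.

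GMPS completes GMP by adding an amino group from glutamine. It read 308 and 331 in low-Myc, 303 and 320 in mid-Myc, and 1109 and 1091 in high-Myc arrays, so the 0-hour and 1-hour arrays overlapped as deposited. Its rise was 3.07 per cell (SE 0.0598, limma adjusted p = 4.87e-11), or 8.41-fold, and 1.92 with equal medians (SE 0.0646, limma adjusted p = 1.55e-11).

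Set in order of their per-cell rise, the genes ran PAICS, PFAS, PPAT, PRPS2, ATIC, GMPS, IMPDH2, ADSL, GART and IMPDH1. The 95% intervals of PFAS (3.65 to 3.95) and PPAT (3.60 to 3.85) overlapped, and so did those of each pair of neighbours from PRPS2 down to GART. The intervals of PAICS (3.96 to 4.19) and IMPDH1 (2.20 to 2.46) overlapped with no neighbour in this order. Among all 12198 genes, the per-cell rises ranked from 10 (PAICS) to 806 (IMPDH1), with PFAS at 29, PPAT at 35 and PRPS2 at 89. Differences between genes were not tested, and a probe set's brightness does not compare levels between genes.

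**Figure D2:**
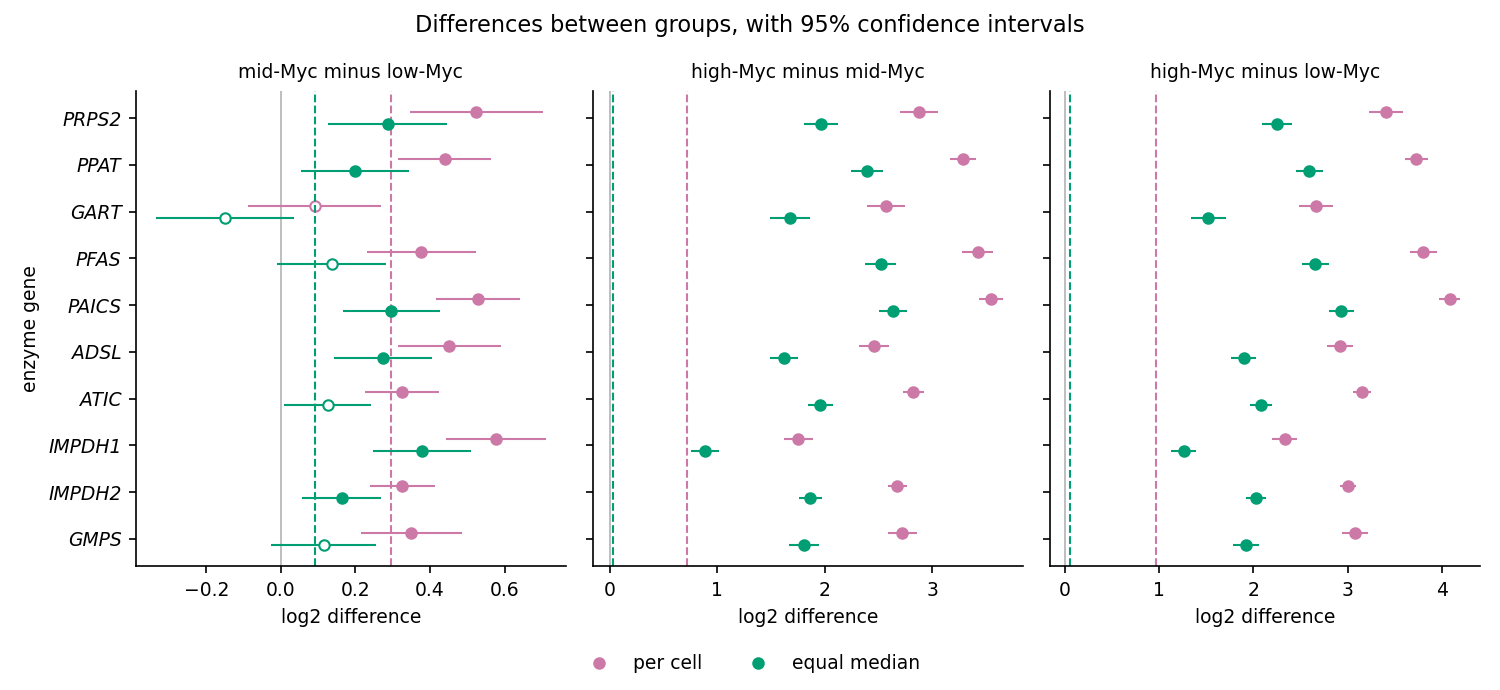
Points are log2 differences with 95% confidence intervals for the 10 enzyme genes in the 3 comparisons, on the per-cell and equal-median scales. Filled points were called by limma, open points were not, and dashed lines mark the median of all genes tested. The points for high-Myc against both other groups lie far to the right of the dashed lines on both scales, while in mid-Myc against low-Myc 9 of the 10 lie a little to the right of them and GART lies to the left and is not called on either scale.

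The comparison of mid-Myc with low-Myc asks what had changed after 1 hour. Per cell, 9 of the 10 genes were higher, all but GART, and none lower, with a median over the 10 of 0.41 (range 0.090 to 0.58). This was close to what the array as a whole showed. All genes tested had a median of 0.30 with 62.4% called higher and 0.697% lower, and the 3516 genes in the enzymes' intensity range had a median of 0.37 with 91.4% called higher. On the equal-median scale 6 of the 10 were called higher, and none lower, beside 25.7% and 3.39% of all genes, and the median over the 10 was 0.18 against 0.092 for all genes. In the enzymes' intensity range that median was 0.15, with 43.8% called higher. Arrays did not overlap, with mid-Myc above, for 9 of the 10 genes on each scale, as for 77.5% of all genes per cell and 47.9% with equal medians.

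IMPDH1 rose by 0.58 per cell (SE 0.0594, limma adjusted p = 3.68e-05) and 0.38 with equal medians (limma adjusted p = 0.00051), the largest of the 10 values with the probe set used. Its other, equally bright probe set gave 0.37 per cell, below PAICS, PRPS2, ADSL, PPAT and PFAS. That probe set stood in for it without mid-Myc replicate 1 (0.28 per cell), mid-Myc replicate 2 (0.46) or high-Myc replicate 2 (0.38). The place of IMPDH1 in the order is therefore not settled. PAICS rose by 0.53 (SE 0.050, limma adjusted p = 2.51e-05) and 0.30 (limma adjusted p = 0.00254). PRPS2 rose by 0.52 (SE 0.0795, limma adjusted p = 0.000334) and 0.29 (limma adjusted p = 0.0104). The dimmer PAICS probe set gave 0.41 per cell and 0.17 with equal medians. The dimmer PRPS2 probe set gave 0.24 and 0.014, so the place of PRPS2 in the order is not settled. ADSL rose by 0.45 per cell (limma adjusted p = 0.000166) and 0.27 with equal medians (limma adjusted p = 0.00449). At 24 hours, IMPDH1 came last of the 10 and PAICS first.

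PPAT, at 0.44 and 0.20 (limma adjusted p = 0.000108 and 0.0403), was called on both scales with smaller values. So was IMPDH2, at 0.33 and 0.16 (limma adjusted p = 7.95e-05 and 0.0239), with the probe set used. That probe set gave the lowest of the 6 IMPDH2 values on each scale, and the highest were 0.56 per cell and 0.35 with equal medians. PFAS, ATIC and GMPS were called per cell, at 0.38, 0.32 and 0.35, but not with equal medians, where they stood at 0.14, 0.13 and 0.11 (limma adjusted p = 0.157, 0.101 and 0.209). GART stood at 0.09 per cell (95% CI -0.089 to 0.27, limma adjusted p = 0.352) and at -0.15 with equal medians (95% CI -0.34 to 0.035, limma adjusted p = 0.213), and its arrays overlapped on both scales. With the probe set used, GART is thus the gene with no call at 1 hour. Another GART probe set, nearly as bright, gave 0.34 per cell and 0.10 with equal medians, so the place of GART is not settled either.

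The 1-hour calls with equal medians depended on single arrays and on the scaling. The 6 calls became 3 without low-Myc replicate 2, 2 without mid-Myc replicate 1 and 3 without mid-Myc replicate 2, and they were 4 without low-Myc replicate 1 or high-Myc replicate 2. With the values as deposited, quantile normalization or cyclic loess, only IMPDH1 was called higher and GART was called lower. IMPDH1 itself was not called without mid-Myc replicate 1 (0.10, limma adjusted p = 0.373), or without high-Myc replicate 2 (0.17, limma adjusted p = 0.0556), where its other bright probe set became the one used. For GART, a call per cell appeared without low-Myc replicate 1 (0.33, limma adjusted p = 0.00305), also with a change of probe set. Per cell, 9 or 10 of the genes were called higher in each of the 15 alternatives run.

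From 1 to 24 hours, high-Myc against mid-Myc, all 10 genes rose on both scales with no overlap of arrays, as for 86.2% of all genes per cell and 41.3% with equal medians. Per cell the rises were 1.75 (IMPDH1) to 3.55 (PAICS), with a median of 2.77 beside 0.72 for all genes, of which 81.7% were called higher and 6.57% lower. With equal medians they were 0.88 to 2.64, with a median of 1.91 beside 0.025 for all genes, of which 33.3% were called higher and 30.9% lower. Because this comparison shares the high-Myc arrays with the first one and the mid-Myc arrays with the second, it is given by its own values. PFAS and PPAT rose by 3.42 and 3.29 per cell (limma adjusted p = 9.38e-11 and 6.12e-11), PRPS2 by 2.88 and ATIC by 2.83. GMPS, IMPDH2, GART and ADSL rose by 2.72, 2.68, 2.57 and 2.46. Each gene's value in this interval was larger than its value in the first hour, though a batch difference of the mid-Myc arrays would enter both. The order of the genes was that of the 24-hour comparison except that GART came before ADSL.

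Most of the genes are read by more than 1 probe set, 29 in all, of which 28 were above the filter. The 18 further probe sets above the filter all had the sign of the one used in high-Myc against low-Myc and in high-Myc against mid-Myc, on both scales. For mid-Myc against low-Myc, 18 of 18 had it per cell and 16 of 18 with equal medians. Per cell such agreement says little, since 90.8%, 81.7% and 62.4% of all genes tested were called higher in these 3 comparisons. With equal medians those shares were 37.7%, 33.3% and 25.7%. IMPDH2, with 6 probe sets of mean intensity 789 to 1628, gave 24-hour rises per cell of 3.002 to 3.40, PAICS gave 4.08 and 4.55, and both PPAT probe sets gave 3.73. PRPS2 gave 2.89 and 3.40. The PPAT probe sets thus read alike at 24 hours, while those of IMPDH2, PAICS and PRPS2 differed somewhat in size.

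PFAS and IMPDH1 were spread more widely. The 3 further PFAS probe sets gave 1.30 to 1.91 where the one used gave 3.80, and their mean intensities were 44.0 to 75.9. IMPDH1 has a pair of bright probe sets, at mean intensities of 926 and 925, that gave 2.33 and 2.37 at 24 hours but 0.58 and 0.37 at 1 hour. Its dimmer pair, at 63.5 and 58.1, gave 1.15 and 1.44 at 24 hours. GART spanned 1.46 to 3.07 over 5 probe sets at 24 hours and 0.090 to 0.34 at 1 hour. ADSL, ATIC and GMPS had a single probe set above the filter and so had no such check. The probe sets used for PFAS, PAICS and IMPDH1 are of the type whose probes may also match other transcripts, and those for PPAT and GMPS are of the type shared between transcripts.

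**Figure D3:**
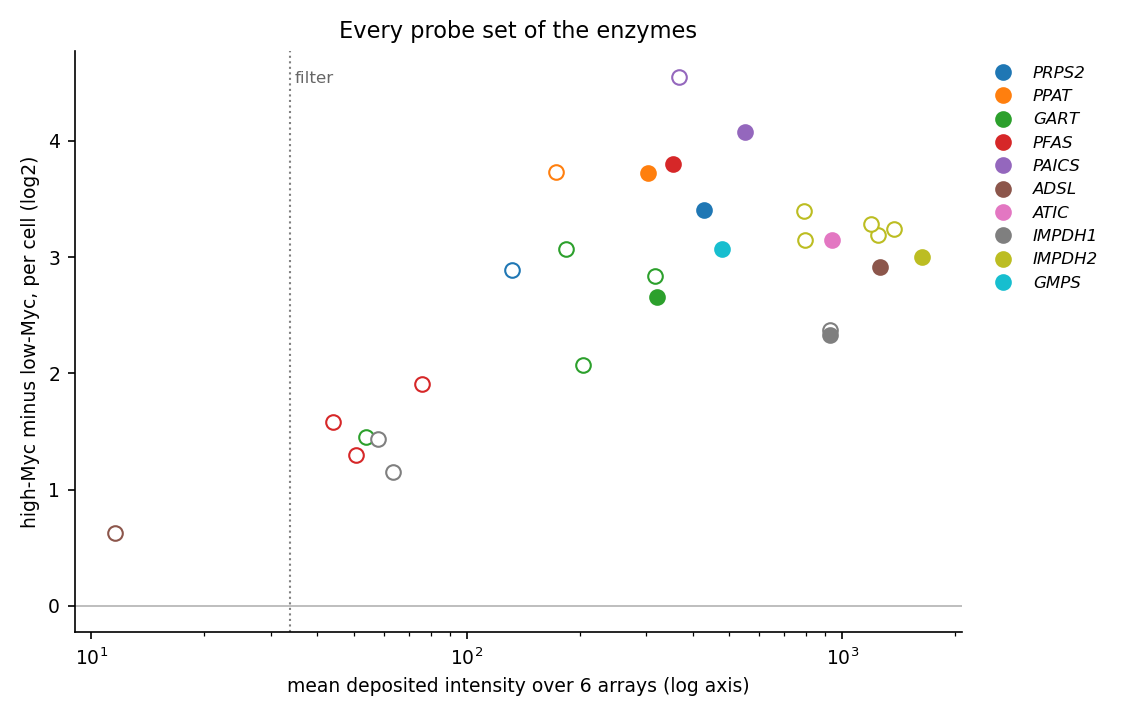
Each of the 29 points is a probe set of an enzyme gene, coloured by gene and filled where it was the one used, with its mean deposited intensity on a logarithmic horizontal axis and its per-cell log2 difference, high-Myc minus low-Myc, on the vertical axis; the dotted line is the filter. All points lie above 0, and the dim probe sets of PFAS and IMPDH1 lie below the bright ones of the same gene.

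Background signal matters most in low-Myc cells, where the readings were lowest. The 23 background control probe sets of the array had means of up to 694, the next being 194. In low-Myc arrays 9 of the 10 genes were above 194 on average, PFAS only just so at 198. PPAT at 171 was the other, and 2 genes were above 694. As no detection calls were in the table, dim readings include background, and the folds and ranks given here are those of readings.

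The rest of purine nucleotide metabolism was less uniform. Of 28 listed genes outside the 10, 23 were on the array under a single symbol and 18 were bright enough to test. At 24 hours 17 of the 18 were higher per cell and none lower, with a median difference of 1.2, where 90.8% of all genes tested were higher. With equal medians 10 were higher and 4 lower, where 37.7% of all genes were higher and 26% lower, with a median of 0.21 beside 2.06 for the 10 enzymes. After 1 hour, 17 were higher per cell and 6 with equal medians, none lower, where 62.4% and 25.7% of all genes were higher. The counts of the smaller groups that follow are read against the same 24-hour shares, and a group higher throughout per cell is what most of the array shows.

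The 3 tested genes of PRPP supply were all higher per cell at 24 hours (90.8% of all genes) and 2 were with equal medians (37.7%). ADSS1, of the AMP branch, was below the filter and not tested. PRPS1, the isozyme of PRPS2, read 588 and 588 in low-Myc, 670 and 693 in mid-Myc, and 1260 and 1282 in high-Myc arrays. Its rise was 2.34 per cell (SE 0.043, limma adjusted p = 3.76e-11) and 1.25 with equal medians, below the 3.40 and 2.25 of PRPS2. PRPSAP2, a protein that associates with PRPP synthetase, rose by 1.497 (SE 0.0582, limma adjusted p = 3.23e-09) and 0.35 (limma adjusted p = 0.000653).

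All 6 salvage genes were higher per cell (90.8% of all genes), and 4 were with equal medians (37.7%). PNP, which splits purine nucleosides into base and sugar phosphate, read 240 and 243 in low-Myc, 230 and 214 in mid-Myc, and 831 and 804 in high-Myc arrays. It rose by 3.05 per cell (SE 0.0582, limma adjusted p = 4.49e-11) and 1.90 with equal medians. HPRT1, which returns hypoxanthine and guanine to IMP and GMP using PRPP, rose by 2.84 (SE 0.0388, limma adjusted p = 1.58e-11) and 1.80. Its arrays read 790 and 750, then 776 and 773, then 2471 and 2403. The rises of PNP and HPRT1 lay inside the range of the 10 enzymes.

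The interconversion and breakdown group held 5 tested genes, all higher per cell (90.8% of all genes) but 1 higher and 3 lower with equal medians (37.7% and 26%). ADA, which deaminates adenosine, was the higher one, at 1.81 per cell (SE 0.0861, limma adjusted p = 1.44e-08) and 0.67 with equal medians. AMPD2, which turns AMP back into IMP, rose by 1.13 per cell (limma adjusted p = 7.3e-09) and stood at -0.012 with equal medians (limma adjusted p = 0.877). The 3 lower ones, named after their values were seen, were AMPD3 at -0.66, NT5C2 at -0.49 and GMPR at -0.38 on that scale. GMPR runs from GMP back to IMP, and AMPD3 from AMP to IMP.

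Of 4 nucleotide kinases, 3 were higher on both scales with the probe sets used (90.8% of all genes per cell and 37.7% with equal medians). AK4 rose by 2.12 per cell (SE 0.068, limma adjusted p = 8.56e-10) and 0.97 with equal medians. AK3 rose by 1.15 (SE 0.0513, limma adjusted p = 8.76e-09) and 0.24 (limma adjusted p = 0.00139). With equal medians, further AK3 probe sets at mean intensities of 891 and 383 gave -0.016 and -0.12, and a dim one at 36.3 gave 0.62. The equal-median rise of AK3 is therefore not settled. AK1, named after its values were seen, was the gene of the 18 not called higher per cell, at -0.12 (limma adjusted p = 0.157). It was lower by 1.26 with equal medians (limma adjusted p = 6.21e-09). The other AK1 probe set, at a mean intensity of 183, gave 0.59 per cell and -0.49 with equal medians. The per-cell sign of AK1 thus rests on the probe set used. The count of genes lower with equal medians rose from 4 to 7 of the 18 with the values as deposited, with quantile normalization, with cyclic loess and with arrays centred on the genes tested.

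**Figure D4:**
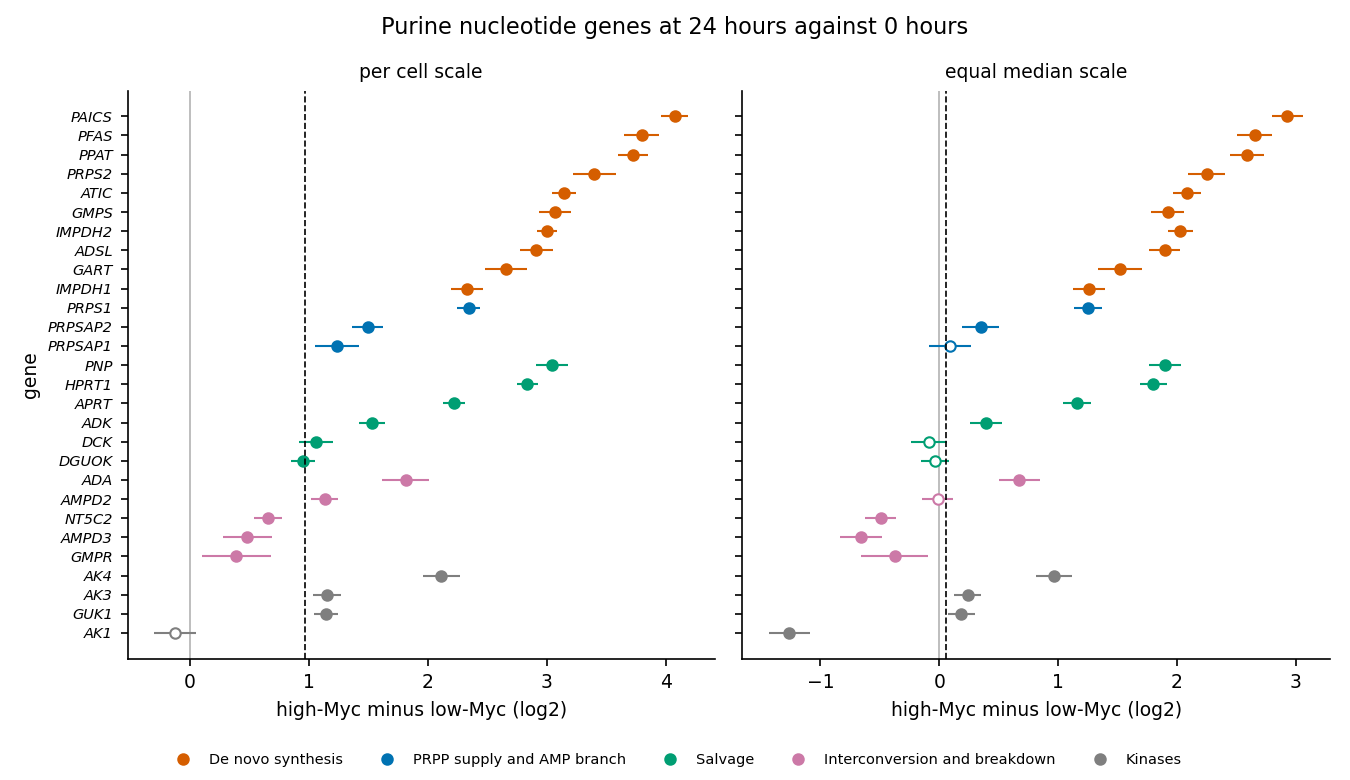
Points are the 24-hour log2 differences, high-Myc minus low-Myc, with 95% confidence intervals, for the 10 enzymes and the 18 other purine nucleotide genes, coloured by group, per cell on the left and with equal medians on the right. Filled points were called by limma, and dashed lines mark the median of all genes tested. The enzymes, PNP, HPRT1, PRPS1, APRT and AK4 lie to the right. On the right-hand scale AK1, AMPD3, NT5C2 and GMPR lie below 0 and are called lower. DCK, DGUOK and AMPD2 lie just below 0 there and are not called.

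Across the 6 arrays the profile of the 10 enzymes, taken as the mean of their per-cell log2 values after each gene was centred on its own mean, can be set against every other gene tested. The nearest by Euclidean distance were CYCS (distance 0.0497), RFC4 (0.0787), CDK4 (0.0806), DCTPP1 (0.0867) and WDR36 (0.093). CYCS is cytochrome c, RFC4 a subunit of the clamp loader of DNA replication, CDK4 a cyclin-dependent kinase and DCTPP1 a nucleotide pyrophosphatase. CYCS was at 0.37 after 1 hour and 3.17 after 24 hours. The others spanned 0.34 to 0.46 and 3.15 to 3.27. Of the enzymes themselves, ATIC lay nearest to that mean profile (0.102), then GMPS (0.191), IMPDH2 (0.223) and PRPS2 (0.259), and IMPDH1 farthest (1.14). With 6 arrays in 3 groups, such likeness is mostly likeness of 2 differences and is given as a description.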

How the data were processed

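The authors deposited 1 table of linear probe set intensity values, summarised with MAS5 per the submitters' processing notes; no version, scaling target or genome build is stated (not given in the sources used here). Labels call the arrays biological duplicates, and p-values measure only the spread between these samples. The number of arrays limits the precision.

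Intensities were turned into log2. Per cell, the 100 ERCC probe sets of an array were set against their mean over 6 arrays and their robust loess trend (span 0.7, degree 1) was subtracted; otherwise arrays were centred on the median of 49293 human probe sets. Each gene took its brightest probe set carrying 1 symbol, updated through Entrez identifiers (45208 of 45278 matched), and was tested above the 40th percentile (33.8 intensity). limma 3.58.1 (R 4.3.3) fitted all 6 arrays with a variance trend, threshold 0.05, with 9.21 degrees of freedom per cell and 12.9 with equal medians. The steps were tested on simulated data.

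The 10 enzymes, MYC, the 2 genes with the largest per-cell 24-hour difference in each related group, and the 5 nearest profiles were named. Members and lists were chosen with earlier results of these data known. A comparison of the IMPDH proteins was planned and not run, since protein sequences were not used here. Alternatives covered the filter, probe sets, a pseudocount of 16, the trend, replicate block, groups fitted, arrays left out and other scalings.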

Additional observations from a re-analysis of the deposited data

How the results depend on the processing

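For high-Myc against low-Myc and against mid-Myc, the count of 10 enzymes higher and 0 lower was the same in all 15 alternatives per cell and all 17 with equal medians, and all 10 single values kept direction and call in each. Over the alternatives the median 24-hour rise was 2.88 to 3.21 per cell and 1.79 to 2.10 with equal medians. For mid-Myc against low-Myc per cell, 9 or 10 genes were higher, with GART added by the mean over probe sets (0.18, limma adjusted p = 0.0139) and without low-Myc replicate 1.

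The 6 enzymes higher at 1 hour with equal medians became 2 without the variance trend, 2 to 5 when each array was left out in turn, 1 higher and 1 lower as deposited, 1 and 1 with quantile normalization, 2 and 1 centred on the genes tested, and 1 and 1 with cyclic loess; the lower one was GART, at -0.27 to -0.30. IMPDH2 turned to -0.033 with quantile normalization and -0.031 with cyclic loess. MYC at 1 hour turned to -0.055 as deposited, -0.15 with quantile normalization, -0.020 centred on the genes tested and -0.16 with cyclic loess. These settings differ in kind. As deposited, no further scaling was applied, centring moves an array by a constant, and quantile normalization and cyclic loess shift values by intensity. The cause of the changed signs was not tested.

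Over all genes, 3139 higher and 414 lower at 1 hour with equal medians became 955 and 1195 with quantile normalization, 1053 and 1034 with cyclic loess, 1527 and 1077 centred on the genes tested, and 1131 and 1489 as deposited. Leaving out low-Myc replicate 2 gave 1900 and 198, mid-Myc replicate 2 left 1951 higher, low-Myc replicate 1 left 215 lower and mid-Myc replicate 1 left 233 lower. Per cell, 85 lower became 51 without low-Myc replicate 2 and 33 with one factor per array. At 24 hours with equal medians, 3172 lower became 4931 centred on the genes tested.

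With the replicate number as a block, 5 enzymes were higher at 1 hour with equal medians, as PPAT fell out (limma adjusted p = 0.0517), and no other count of enzymes changed. Deviations of same-numbered arrays from their group means correlated at -0.00895 to 0.0194 per cell. Whether same-numbered arrays were handled together is not known and was not tested.

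The span of background signal limits the dim probe sets, and 2 arrays a group limit small differences such as those at 1 hour.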
